A study of Xenopus laevis with 28 samples.

Results

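The proteins of the DNA replication origin and fork were represented by 53 of 45831 gene models in a tissue expression survey of Xenopus laevis, the African clawed frog. A model was included when its symbol begins with mcm, orc, gins, rfc or rpa followed by a digit, or with pola, pold or pole followed by a digit or by no further letters before the copy ending, or is cdc6, cdc45 or pcna. Of the 53 models, 50 met this rule as written and 3 (cdc45-like.L, cdc45-like.S and pole-like.L) met it once the ending -like was dropped. No model analysed here carried the symbol cdc6 or pcna. The model mcm3ap-like.L was caught by its prefix only, since MCM3AP is an mRNA export factor and no helicase subunit. By role the models comprised 12 of the MCM2-7 helicase, 7 of the origin recognition complex, 6 of the clamp loader, 6 of RPA, 5 each of CDC45 and GINS, polymerase delta and polymerase epsilon, 3 other MCM proteins, 3 of polymerase alpha, and mcm3ap-like.L.

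Polyadenylated RNA had been sequenced from 14 whole tissues of the inbred J-strain, with 2 libraries per tissue and 28 in all. One library of each tissue came from the dataset named Ueno and the other from the dataset named Taira. Each dataset used 1 female for 13 tissues, and the testes came from a male sibling of each female. The tissues were ovary and testis, and 12 somatic tissues (kidney, spleen, skin, brain, eye, lung, intestine, heart, stomach, muscle, liver and pancreas), all without treatment or genetic change given in the labels, which state no age. Values are TPM, which give a model's share of the transcripts in a library, corrected for length and scaled to a total of 1000000. They keep no read depth, so the depth is unknown and no counting error can be given. Between 24533 and 34388 models were above 0 in a library, and of 88 models that mark the 14 organs 82 were highest in their own organ. The species is allotetraploid, and many genes exist as a long (L) and a short (S) chromosome copy.

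Replication starts where the origin recognition complex, ORC, binds DNA and, with CDC6 and CDT1, loads the ring of MCM2 to MCM7. CDC45 and the GINS complex join the ring to make the active helicase. Polymerases alpha, delta and epsilon then copy the strands, the RFC clamp loader places the sliding clamp, and RPA covers the single strands. Frog eggs carry a maternal store of these proteins for the cell cycles of the early embryo, and Xenopus has maternal forms of MCM3 and MCM6 that are replaced by zygotic forms during development. Whole tissue was sequenced, so fewer cells of a type and less RNA per cell cannot be told apart.

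A model was tested when it reached 1 TPM in at least 2 libraries. This left 49 of the 53 models, and the other 4 (pola1-like.Lp, pold1.Sp, pold2.Sp and pole3.S) were at or below 0.58 TPM in every library. On the log2(TPM + 1) scale, 44 of the 49 differed between the 14 tissues and 34 differed between the 12 somatic tissues at a Benjamini-Hochberg adjusted p under 0.05 (limma F test). Over all models tested, 83.5% and 78% did so, and the shares of the replication genes were near these. Between the somatic tissues, 16 of the 49 passed after median-of-ratios scaling and 19 after quantile normalization, in place of 34. The share of all models that passed after these scalings was not counted, so this drop cannot be read as particular to the replication genes. In the comparisons that follow, a model was called when its adjusted p was under 0.05 and its log2 difference was at least 1 in size.

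The replication genes were highest in the gonads and lowest in pancreas. Their summed level was 4821 TPM in the Ueno ovary and 6752 TPM in the Taira ovary, and 1326 and 2074 TPM in the Ueno and Taira testes. Among somatic libraries the sum ranged from 43.4 TPM in the Taira pancreas to 689 TPM in the Taira kidney. Ovary was the tissue of highest mean for 39 of the 49 models, testis for 8 and brain for 2, rfc5.L and orc4.Sp. Among somatic tissues only, the highest mean fell in spleen for 13 models, in kidney for 12, in brain for 12, in skin for 11 and in eye for 1. Pancreas was the lowest tissue for 41 models and muscle for 5. These counts of highest and lowest tissues were not made over all models, so they cannot be read as particular to the replication genes. The 5 models that did not pass the test between the 14 tissues were mcm9-like.L, orc3.S, pola1-like.S, rfc1.L and rpa2.L.

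The roles were not spread alike over the somatic tissues. Of the 11 models highest in skin, 8 were of the MCM2-7 helicase (mcm2.L, mcm2.S, mcm4.L, mcm4.S, mcm5.S, mcm6.2.L, mcm6.2.S and mcm7.1), and of the 12 highest in brain none was. Brain instead held the highest somatic means of rfc1.L, rfc3.L, rfc5.L, rpa1.L, rpa1.S, rpa2.L, pold2.L, pold3.L, pola1-like.S, orc4.L, orc4.Sp and mcm8.L. The summed MCM2-7 level was 123 and 207.9 TPM in the Ueno and Taira skins, and 35.0 and 34.3 TPM in the Ueno and Taira brains. The summed clamp loader level was 76.7 and 75.7 TPM in the skins, and 87.4 and 121.7 TPM in the brains. The MCM2-7 sums of the skins thus lay above those of the brains, while for the clamp loader the brains lay above the skins.

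In muscle the summed MCM2-7 level was 6.05 and 5.11 TPM in the Ueno and Taira libraries, while RPA, which also serves DNA repair, summed to 28.8 TPM in each. In pancreas the MCM2-7 sums were 3.46 and 3.05 TPM and the RPA sums 6.14 and 6.78 TPM. In the ovaries MCM2-7 was the larger, with sums of 2212 and 2173 TPM in the Ueno and Taira libraries. RPA summed to 393 and 765 TPM there. The models of MCM7 held 2018 and 804 TPM of these MCM2-7 sums. In the Ueno ovary the MCM2, MCM4, MCM5 and MCM6 sums were 39.6, 65.0, 56.1 and 16.3 TPM. In the Taira ovary they were 267, 219, 290 and 325 TPM. The order over RPA in the Ueno ovary thus rests on MCM7. These sums are descriptions over all members of a role that passed the minimum, and no test was made of them. All MCM2-7 sums leave out zmcm3.L, an MCM3 model outside the rule. It had 19.8 and 36.35 TPM in the Ueno and Taira skins and 85.45 and 60.7 TPM in the testes.

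**Figure D1:**
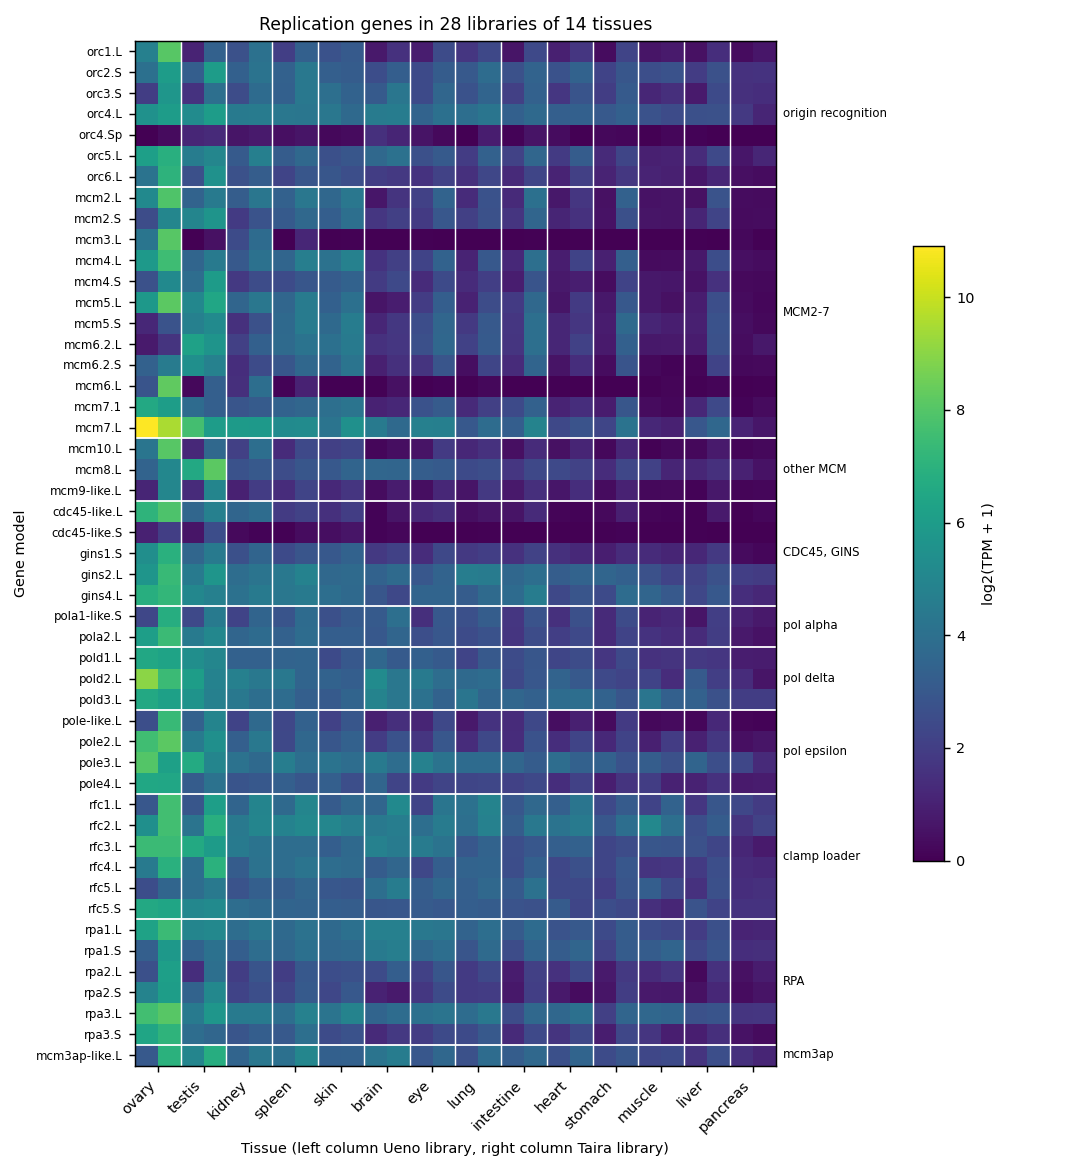
Heat map of 49 replication gene models (rows, grouped by role) in 28 libraries (columns, with the Ueno library left of the Taira library in each tissue), coloured by log2(TPM + 1). Ovary has the highest mean in 39 of the 49 rows, mcm7.L reaches 1923 TPM in the Ueno ovary, and mcm3.L and mcm6.L stay at or below 1.27 TPM in somatic tissues other than kidney.

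The member of highest mean level in each role is given here in full. mcm7.L, a subunit of the replicative helicase, had 1923 TPM in the Ueno ovary, 738 TPM in the Taira ovary, and 200.1 and 64.9 TPM in the Ueno and Taira testes. In the 24 somatic libraries mcm7.L had a lowest value of 0.56, a median of 12.9 and a highest value of 60.7 TPM. All 4 gonad libraries lay above all somatic libraries, and the kidney pair (60.7 and 56.5 TPM) was the highest of the somatic ones. orc4.L, an ATPase subunit of the origin recognition complex, had 45.3 and 63.5 TPM in the Ueno and Taira ovaries, 37.6 and 63.7 TPM in the testes, and 1.17 to 22.7 TPM in somatic libraries with a median of 11.1 TPM. The gonads lay above the somatic libraries here too, by a smaller margin.

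gins4.L, a subunit of the GINS complex, had 114.8 and 149.9 TPM in the Ueno and Taira ovaries, 31.9 and 25.6 TPM in the testes, and 1.31 to 23.2 TPM in somatic libraries. rfc2.L, a small subunit of the clamp loader, had 42.2 and 196 TPM in the Ueno and Taira ovaries, 17.6 and 118 TPM in the testes, and 2.1 to 33.1 TPM in somatic libraries. The Ueno testis therefore fell inside the somatic range for rfc2.L, while both ovaries lay above it. rpa3.L, the smallest RPA subunit, had 191.5 and 268 TPM in the Ueno and Taira ovaries, 21.5 and 52.2 TPM in the testes, and 2.19 to 28.6 TPM in somatic libraries.

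The polymerase subunits did not share 1 order of the frogs in the gonads. pola2.L, the accessory subunit of polymerase alpha, had 67.7 and 170.8 TPM in the Ueno and Taira ovaries and 21.1 and 32.3 TPM in the testes, against 0.46 to 13.4 TPM in somatic libraries. pold2.L, an accessory subunit of polymerase delta, had its higher values in the Ueno gonads, with 516 and 172.6 TPM in the Ueno and Taira ovaries and 65.6 and 27.2 TPM in the testes, against 0.54 to 37.2 TPM in somatic libraries. The Ueno brain gave the highest somatic value of pold2.L. pole3.L, a histone-fold subunit of polymerase epsilon, had 255.6 and 72.4 TPM in the Ueno and Taira ovaries and 101.7 and 30.4 TPM in the testes, against 1.44 to 26.4 TPM in somatic libraries. mcm8.L, whose product acts with MCM9 in homologous recombination, was the one of these models that peaked in testis, with 93.7 and 283 TPM in the Ueno and Taira testes, 10.3 and 32.6 TPM in the ovaries, and 0.44 to 11.2 TPM in somatic libraries.

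In ovary, 43 of the 49 replication genes were higher than in the 12 somatic tissues and none was lower. Over all models tested, 24.3% were higher and 19.8% lower. The median log2 difference of the replication genes was 3.57, against -0.21 for all models. All 6 RPA models, all 5 of CDC45 and GINS, all 4 of polymerase epsilon, all 3 of polymerase delta, both of polymerase alpha and all 3 other MCM proteins were called, with 10 of 12 for the MCM2-7 helicase, 5 of 7 for the origin recognition complex and 4 of 6 for the clamp loader. cdc45-like.S reached 1 TPM only in the Ueno and Taira ovaries (1.0 and 3.08 TPM) and the Taira testis (5.05 TPM). It thus passed the minimum only through the gonads, and its calls there add no support. Of the 43 called models, 31 had both ovaries above all 24 somatic libraries. In roles called in full, rpa1.S, rpa2.L, pole-like.L, pola1-like.S, mcm8.L and mcm9-like.L had only the Taira ovary above all somatic libraries. Their Ueno ovary lay inside the somatic range. There pola1-like.S had 3.93 and rpa1.S 8.87 TPM, below their somatic medians of 4.955 and 10.59 TPM. The other models named lay above theirs. The full counts of RPA, polymerase epsilon, polymerase alpha and other MCM proteins thus rest partly on the Taira ovary. Overlap of libraries, here and below, was counted for the members only and not over all models. At an unadjusted p under 0.05 no member was lower in ovary, testis, spleen or kidney and none was higher in muscle (limma).

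The largest ovary differences were those of helicase genes. mcm7.L averaged 1331 ± 838 TPM in ovary (SD, n = 2) and 18.6 TPM over the somatic tissues (log2 difference 6.61, SE 0.50, adjusted p = 8.4e-09, limma). cdc45-like.L, which carries the name of the helicase partner CDC45, averaged 184 ± 69.0 TPM in ovary and 1.84 TPM in somatic tissues (6.48, SE 0.31, adjusted p = 1.5e-11, limma). mcm3.L averaged 143 ± 177 TPM in ovary and 0.814 TPM in somatic tissues (5.82, SE 0.55, adjusted p = 1.2e-07, limma). The SD of mcm3.L exceeds its mean because the Taira ovary held 268 and the Ueno ovary 17.9 TPM, although both lay above all somatic libraries. pole2.L, an accessory subunit of polymerase epsilon, averaged 237 ± 68.4 TPM in ovary and 4.57 TPM in somatic tissues (5.74, SE 0.48, adjusted p = 2.7e-08, limma).

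Other leading models were mcm10.L, whose product helps to activate the helicase (log2 difference 5.06, SE 0.70), pold2.L (5.04, SE 0.41), rpa3.S (4.74, SE 0.38), orc1.L, the largest subunit of the origin recognition complex (4.72, SE 0.73), pola2.L (4.34, SE 0.33) and rfc3.L of the clamp loader (4.20, SE 0.23). Their adjusted p lay between 1.0e-10 for rfc3.L and 3.7e-05 for orc1.L (limma). In each of these 6 models both ovaries were above all somatic libraries. The 6 models not called were rfc1.L (1.85, adjusted p = 0.087), orc3.S (1.15, adjusted p = 0.20), rfc5.L (0.12), orc4.Sp, mcm5.S (-0.27) and mcm6.2.L.

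mcm6.2.L was the model with the lowest ovary difference. It had 0.72 and 2.14 TPM in the Ueno and Taira ovaries, against 6.24 TPM on average in the somatic tissues, a log2 difference of -1.11 (SE 0.60, adjusted p = 0.13, limma). With the dataset as a block, mcm6.2.L was called lower (adjusted p = 0.032) and rfc1.L higher (adjusted p = 0.011) in ovary (limma). Without the Taira ovary 29 models were called higher, and of all calls in ovary 55.1% were higher in these values and 42.4% after median-of-ratios scaling.

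**Figure D2:**
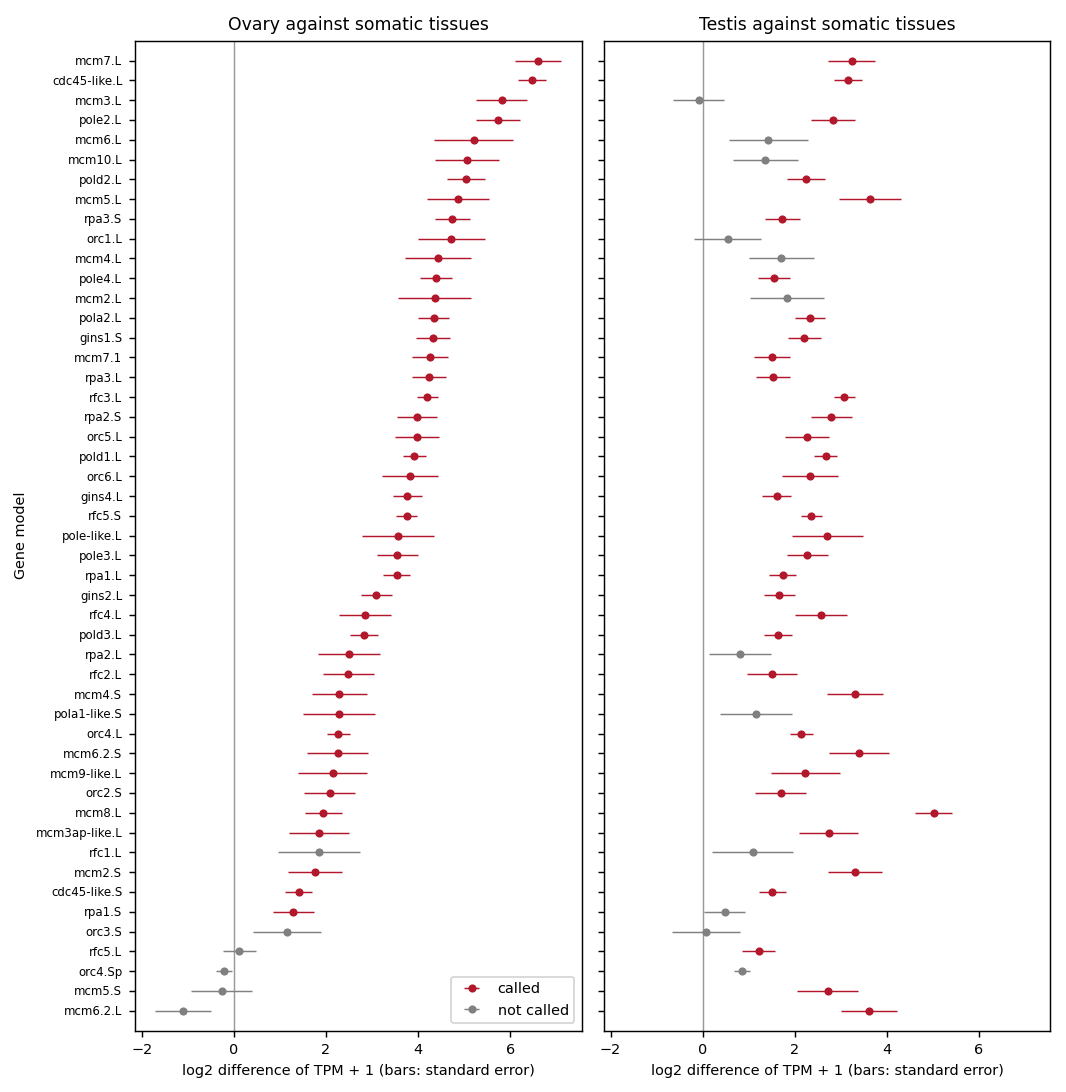
Log2 differences of TPM + 1 for 49 replication gene models in ovary (left) and testis (right) against the mean of 12 somatic tissues, with bars for the standard error, red points for called models and grey for those not called. The order is that of the ovary values, from mcm7.L at 6.61 down to mcm6.2.L at -1.11, and mcm8.L has the highest value in testis at 5.02.

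In testis, 37 of the 49 replication genes were higher than in the somatic tissues and none was lower, against 20% and 8.67% of all models. The median log2 difference was 2.14 for the replication genes and 0.02 for all models. mcm8.L led, at 188 ± 134 TPM in testis and 4.93 TPM in somatic tissues (log2 difference 5.02, SE 0.40, adjusted p = 2.0e-08, limma). It was followed by mcm5.L (3.64, SE 0.67), mcm6.2.L (3.62, SE 0.60), mcm6.2.S (3.41, SE 0.65), mcm4.S (3.30, SE 0.61), mcm2.S (3.30, SE 0.58) and mcm7.L (3.23, SE 0.50), all subunits of the helicase ring. These 6 had both testes above all somatic libraries, and their adjusted p ranged from 6.65e-05 for mcm7.L to 0.00049 for mcm6.2.S (limma).

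By role, 8 of 12 MCM2-7 models, 5 of 5 of CDC45 and GINS, 4 of 4 of polymerase epsilon, 3 of 3 of polymerase delta, 5 of 6 of the clamp loader, 4 of 6 of RPA and 4 of 7 of the origin recognition complex were higher in testis. mcm3.L was not among them, with 0 and 0.42 TPM in the Ueno and Taira testes (log2 difference -0.09). mcm6.L had 0.17 and 8.91 TPM in the Ueno and Taira testes (1.43, adjusted p = 0.21, limma). orc1.L differed by 0.54 and orc3.S by 0.07, and neither was called. cdc45-like.S was called, but it passed the minimum only through the gonads. Without the Taira testis 24 models were called higher. Of all calls in testis 69.7% were higher in these values and 49.8% after median-of-ratios scaling.

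Oocyte and germ cell markers were read beside the testis result. Of 16 tested oocyte models 7 were higher in testis, among them dazl.L with 124 and 1570 TPM in the Ueno and Taira testes, a gene of germ cells of both sexes. Levels of the list varied in the Ueno and Taira testes. The egg coat gene zp4.S had 0.1 and 0.14 TPM and velo1.L 0 and 0.15 TPM there. The egg coat genes zp4.L and zp3.2.L had 3.1 and 7.56 TPM and 7.02 and 6.82 TPM, and figla.L had 40.4 and 127.7 TPM. All 14 tested models of the meiosis and spermatogenesis list were higher in testis. The part of these cells in the result was not tested.

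Set directly against each other, testis had 22 lower and 4 higher replication genes than ovary, where 12.1% of all models were lower and 14.7% higher. The median log2 difference was -1.24, against 0.15 for all models. The 4 higher models were mcm6.2.L (4.72, SE 0.82, adjusted p = 0.00024), mcm8.L (3.08, SE 0.54, adjusted p = 0.00028), mcm5.S (2.98, SE 0.90, adjusted p = 0.018) and orc4.Sp (1.07, SE 0.25, adjusted p = 0.0030), all by limma. orc4.Sp had at most 1.43 TPM in testis. Without the Ueno ovary 2 models were higher and without the Taira ovary 7.

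mcm3.L had the lowest value in testis relative to ovary, at 0 and 0.42 TPM in the Ueno and Taira testes, against 17.9 and 268 TPM in the ovaries (log2 difference -5.90, SE 0.74, adjusted p = 8.2e-06, limma). orc1.L followed with 1.12 and 9.38 TPM in the testes, against 25.9 and 265.6 TPM in the ovaries (-4.18, SE 0.99, adjusted p = 0.0036, limma). mcm10.L (-3.70), mcm7.L (-3.37), cdc45-like.L (-3.31), rpa3.S (-3.00), pole2.L (-2.91), pold2.L (-2.79), gins4.L (-2.16), pola2.L (-2.0) and rfc5.S (-1.39) were lower with no overlap of libraries. mcm6.L (-3.77, adjusted p = 0.021, limma) was called although its Taira testis (8.91 TPM) exceeded its Ueno ovary (6.19 TPM). mcm5.L (-1.23, adjusted p = 0.37), pole3.L (-1.27, adjusted p = 0.13) and mcm2.S (1.53, adjusted p = 0.17) were not called (limma). With the dataset as a block pole3.L was lower (adjusted p = 0.012) and mcm2.S higher (adjusted p = 0.027, limma). Of the 26 calls, 5 were lost and 5 were new after median-of-ratios scaling, and 6 were lost and 2 were new after quantile normalization. rfc5.S and orc4.Sp were among those that lost their calls after either scaling.

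Of the MCM3 and MCM6 models, mcm3.L and mcm6.L were highest in ovary, and zmcm3.L, mcm6.2.L and mcm6.2.S were highest in testis. Reference annotation gives mmcm6 as a synonym of mcm6.L and zmcm6 as one of mcm6.2.S, the maternal and zygotic names. mcm6.L had 6.19 and 301 TPM in the Ueno and Taira ovaries, 0.17 and 8.91 TPM in the testes, 1.79 and 14.5 TPM in the kidneys, and at most 1.08 TPM in the 22 other somatic libraries. mcm3.L had 17.9 and 268 TPM in the ovaries, 4.59 and 13.2 TPM in the kidneys, and at most 1.27 TPM in the 22 other somatic libraries. The Taira spleen held both of these highest values, and its oocyte markers summed to 27.1 TPM.

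mcm6.2.L showed the opposite order, with 73.9 and 49.2 TPM in the Ueno and Taira testes, 0.72 and 2.14 TPM in the ovaries, and its highest somatic values in skin (15.3 and 20.8 TPM) and spleen (12.7 and 16.7 TPM). Its S copy mcm6.2.S had 41.8 and 27.0 TPM in the testes, 9.4 and 22.3 TPM in the ovaries, and 10.1 and 17.2 TPM in skin. mcm6.2.S was called higher in ovary than in somatic tissues (2.25, SE 0.65, adjusted p = 0.0077, limma). In the Ueno ovary it exceeded mcm6.L (6.19 TPM). The MCM3 model zmcm3.L, which the rule does not include because its symbol begins with z, was higher in testis than in somatic tissues (log2 difference 3.30) and than in ovary (2.66). In ovary it differed from somatic tissues by 0.64 and was not called.

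As a share of summed TPM, mcm6.L made up 38.0% of the MCM6 models in the Ueno ovary and 92.5% in the Taira ovary. mcm3.L made up 62.8% of the MCM3 models (mcm3.L and zmcm3.L) in the Ueno ovary and 96.2% in the Taira ovary. In the Ueno and Taira kidneys these shares were 26.7% and 51.4% for MCM6 and 40.9% and 51.2% for MCM3. In the 22 other somatic libraries they were at most 13.3% and 23.2%. Both of these maxima rest on values near 0, with mcm6.L at 0.12 TPM in the Taira muscle and mcm3.L at 0.16 TPM in the Ueno pancreas. In the testes mcm3.L was at most 0.687% and mcm6.L at most 10.5%. The models are near relatives in sequence, so reads shared between them could have been split by the estimation.

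**Figure D3:**
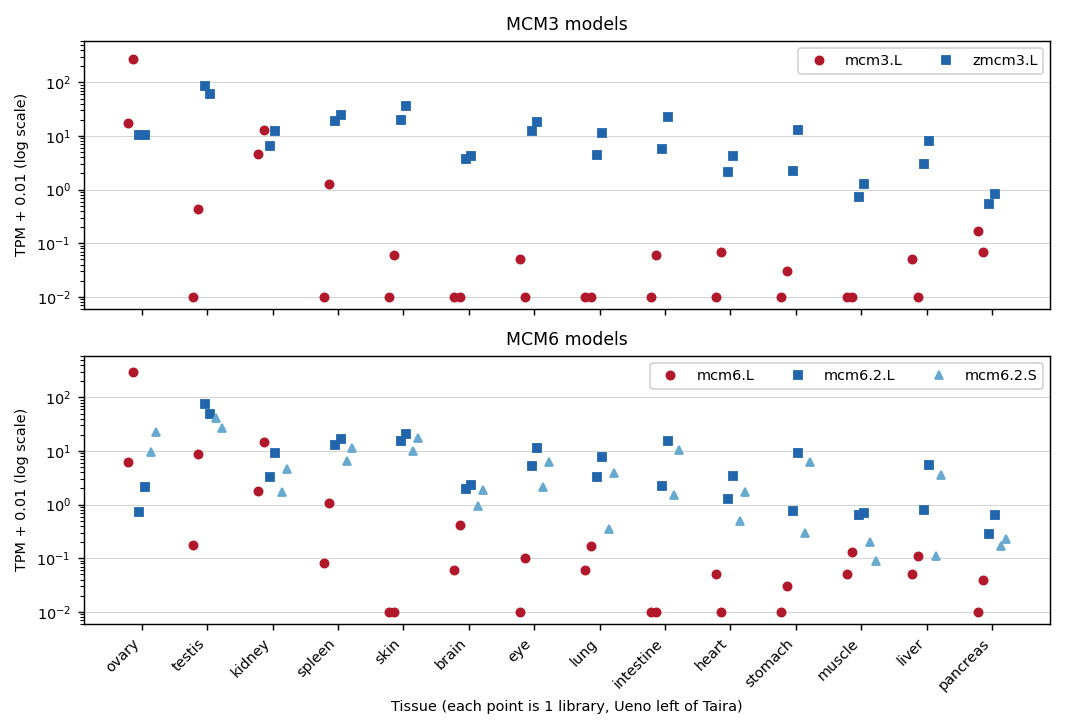
TPM of the MCM3 models (top) and MCM6 models (bottom) in each library of 14 tissues on a log axis, the Ueno library left of the Taira library, with 0.01 TPM added so that libraries at 0 appear at the bottom. mcm3.L and mcm6.L (red) have their highest values in the Taira ovary, while mcm6.L has 6.19 TPM in the Ueno ovary and 1.79 TPM in the Ueno kidney. In the 22 somatic libraries other than kidney both are at most 1.27 TPM. zmcm3.L, mcm6.2.L and mcm6.2.S (blue) are highest in testis.

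The helicase contains its 6 subunits in equal number, so their summed TPM can be set side by side. Among MCM2 to MCM6, the highest subunit exceeded the lowest by 3.98-fold in the Ueno ovary and 1.49-fold in the Taira ovary, by 4.68-fold and 2.01-fold in the Ueno and Taira testes, and by a median of 1.59-fold (1.13 to 3.26) in the 24 somatic libraries. MCM7 models stood above the others, at 50.9 times the median of MCM2 to MCM6 in the Ueno ovary and 2.89 times in the Taira ovary. In the Ueno and Taira testes it was 3.71 and 0.886 times, and in somatic libraries it had a median of 2.02 and a range from 1.14 to 7.75. The Ueno ovary was the library with the highest ratio of MCM7 to the other subunits.

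Of the L and S copies, 10 member pairs could be tested among 7749 pairs. A pair was tested when at least 1 of its copies passed the minimum. Over all tissues, L was higher in 3 pairs (cdc45-like, pole3 and rpa3) and S in none, against 15.6% and 8.19% of all pairs. pole3 entered only through its L copy, since pole3.S did not pass, so its call adds no support. With both copies required to pass, L was higher in 2 pairs and S in none. The ratio then differed between tissues in 9 pairs, and the shares over all pairs were not counted at that setting. No pair had S higher at an unadjusted p under 0.05 (limma). With 1 copy past the minimum, the ratio of L to S differed between tissues in all 10 pairs, against 80.5% of all pairs (limma F test). With 1 TPM added to each copy, the largest and smallest tissue ratios lay a median of 4.03 apart on the log2 scale in the 10 pairs. In all pairs they lay 2.46 apart.

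The ovary was an extreme of most of these ratios with 1 TPM added to each copy. Of mcm5, the L copy made up 97.7% and 98.0% of L plus S in the Ueno and Taira ovaries, 55.5% and 70.5% in the testes, 85.1% and 77.5% in the kidneys, and 25.3% to 53.1% in the 22 other somatic libraries. Of mcm2, the L copy made up 87.8% and 88.3% in the ovaries, 24.9% and 30.6% in the testes, and 20.1% to 76.3% in somatic libraries. Of mcm4, it made up 91.5% and 84.0% in the ovaries, 43.1% and 25.04% in the testes, and 28.4% to 79.9% in somatic libraries. The ovaries of these 3 pairs lay above all somatic libraries, and for mcm2 both testes lay near the lowest of them.

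mcm6.2 and rfc5 went the other way in ovary. The L copy of mcm6.2 made up 7.11% and 8.77% in the Ueno and Taira ovaries, against 54.7% to 90.6% in the 24 somatic libraries and 63.8% and 64.5% in the testes. The L copy of rfc5, a small subunit of the clamp loader, made up 4.84% and 11.4% in the ovaries, against 25.1% to 83.3% in somatic libraries. For both pairs the ovaries lay below all other libraries. rfc5.L had 14.5 and 22.8 TPM in the Ueno and Taira brains, its highest tissue, and rfc5.S had 96.3 and 84.1 TPM in the ovaries.

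Of rpa2, the middle subunit of RPA, the L copy made up 15.7% in the Ueno ovary and 51.3% in the Taira ovary, 14.5% and 30.8% in the testes, and 81.7% and 92.4% in brain. The L copy of rpa1, the subunit that binds single-stranded DNA, made up 89.5% and 75.6% in the Ueno and Taira ovaries and 38.3% and 27.8% in muscle. pole3.S was listed at 0 in all libraries but one (0.58 TPM in the Taira intestine), so the tissue ratio of pole3 follows the level of pole3.L. cdc45-like.S had at most 5.05 TPM, in the Taira testis, so the tissue ratio of cdc45-like likewise follows mainly the level of cdc45-like.L.

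**Figure D4:**
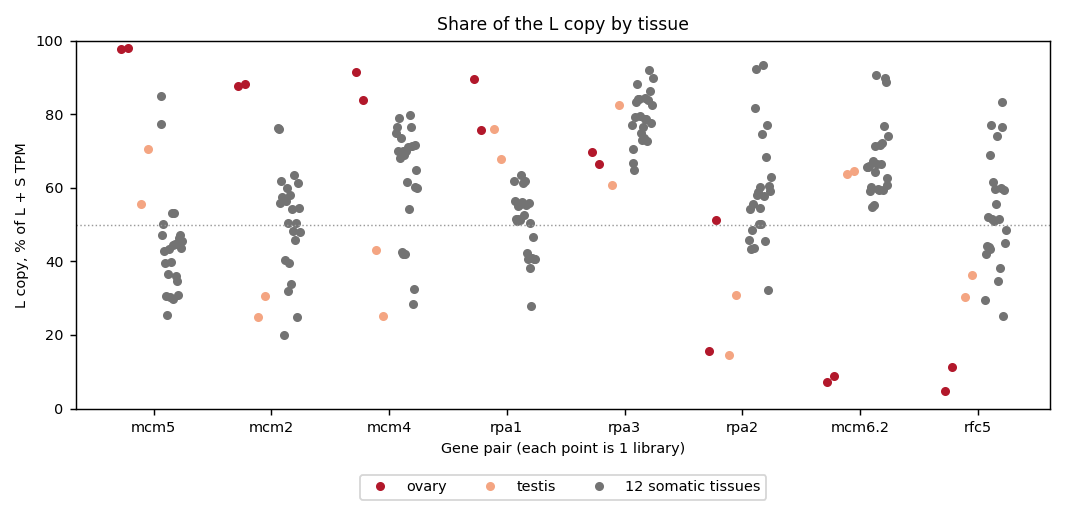
Share of the L copy in the summed TPM of L and S (percent) for 8 replication gene pairs, with 1 point per library for ovary, testis and the 12 somatic tissues and a dotted line at 50%. The ovary points of mcm5, mcm2 and mcm4 lie above those of the somatic tissues, and those of mcm6.2 and rfc5 lie below all others.

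Among somatic tissues, spleen had 14 replication genes higher than the other 11 somatic tissues and none lower, against 16.4% and 7.41% of all models. The median log2 difference was 1.02 for the replication genes and 0.27 for all models. MCM2-7 models led, with 6 of 12 called. mcm5.L had 11.2 and 22.2 TPM in the Ueno and Taira spleens, against 4.79 TPM on average in the other tissues (2.14, SE 0.67, adjusted p = 0.021, limma). mcm5.S (2.04, SE 0.66), mcm4.L (1.99, SE 0.71), mcm6.2.L (1.79, SE 0.61), mcm7.L (1.78, SE 0.51) and mcm7.1 (1.60, SE 0.40) followed.

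Outside the helicase ring, rpa3.S (1.63), pola2.L (1.31), rpa2.S (1.31), gins2.L (1.26), gins4.L (1.23), cdc45-like.L (1.10), pole4.L (1.10) and pold1.L (1.06) were called in spleen, and no model of the origin recognition complex or clamp loader was. All 14 overlapped with some library of another somatic tissue. Skin, for example, had 9.3 and 15.2 TPM of mcm5.L in the Ueno and Taira libraries. Of the models called in spleen, mcm4.L, mcm5.S, mcm6.2.L and mcm7.1 had their highest somatic mean in skin. The mean MCM2-7 sum was 165.6 TPM in skin and 153.3 TPM in spleen, so the lead of these models was not particular to spleen. Skin was not tested against the other somatic tissues. All 13 tested lymphocyte models and 7 of 8 erythroid models were higher in spleen, and the part of these cells in the result was not tested. Without the Taira spleen no model was called and without the Ueno spleen 5 were, while 23 were called with the dataset as a block. After median-of-ratios scaling 2 remained called (mcm5.L and rpa3.S), and the share of higher calls among all models was 47.2%, against 68.9% in these values.

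Kidney had 16 replication genes higher than the other somatic tissues and none lower, where 16% and 1.64% of all models were. The median log2 difference was 0.95 for the replication genes and 0.48 for all models. mcm3.L led, with 4.59 and 13.2 TPM in the Ueno and Taira kidneys, against 0.0795 TPM on average in the other somatic tissues (3.07, SE 0.55, adjusted p = 0.00042, limma). cdc45-like.L had 10.8 and 13.3 TPM in the kidneys, against 0.905 TPM (2.94, SE 0.31, adjusted p = 9.9e-07, limma). mcm6.L (2.60, SE 0.86), mcm7.L (2.49, SE 0.51) and rfc5.S (1.15, SE 0.22) were the other models with both kidneys above all other somatic libraries.

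The remaining kidney calls were mcm10.L (2.08), mcm5.L (2.01), pole2.L (1.86), pold2.L (1.52), orc5.L (1.48), pola2.L (1.38), gins1.S (1.36), rpa3.S (1.16), rfc3.L (1.15), orc4.L (1.08) and gins4.L (1.07). All 16 models had ovary as their highest tissue and were also called there, which held for 39 and 43 of all 49 members. Oocyte markers moved with them: 15 of 16 tested oocyte models were higher in kidney, and their summed level was 380 and 294 TPM in the Ueno and Taira kidneys, against 6407 and 4845 TPM in the ovaries and at most 39.4 TPM in any other somatic library. For oocyte genes the kidney level was a median of 5.86% of the ovary level in the Ueno frog (3.09% to 55.0%) and 5.42% in the Taira frog (3.61% to 8.83%). For the replication genes with at least 5 TPM in ovary it was a median of 18.03% in the Ueno frog and 10.7% in the Taira frog. mcm3.L in kidney was 25.7% of its ovary level in the Ueno frog and 4.92% in the Taira frog, and the part of oocytes in the kidney result was not tested. Without the Taira kidney 5 models were called and without the Ueno kidney 10. After median-of-ratios scaling 4 of the 16 remained (cdc45-like.L, mcm10.L, mcm3.L and mcm6.L), and the share of higher calls among all models was 71.8%, against 90.7% in these values.

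Muscle had 10 replication genes lower than the other somatic tissues and none higher, where 23.1% of all models were lower and 5.64% higher. The share of the replication genes was thus near the background. mcm7.L had 1.3 and 0.99 TPM in the Ueno and Taira muscles, against 20.2 TPM on average in the other tissues (-2.74, SE 0.51, adjusted p = 0.00046, limma). mcm4.L (-2.13), mcm7.1 (-1.98), mcm6.2.L (-1.73), orc5.L (-1.69), rfc5.S (-1.57), mcm2.S (-1.55), pold2.L (-1.50), gins2.L (-1.06) and pola2.L (-1.04) were the other lower models. Only rfc5.S had both muscles below all other somatic libraries. Without the pancreas libraries 16 models were called in muscle. Without the Taira muscle 3 were called and without the Ueno muscle 5, and 18 were with the dataset as a block. Relative to the median of all models, the members' median was -0.29 in these values, -0.05 after median-of-ratios scaling and 0.07 after quantile normalization, so that its sign flipped. The share of higher calls among all models was 19.6% in these values and 45.4% and 49.7% after the 2 scalings.

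In intestine, an organ whose lining is renewed throughout life, 1 model was higher than in the other somatic tissues and none lower, against 10.6% and 4.66% of all models. This was gins4.L, with 13.1 and 23.2 TPM in the Ueno and Taira intestines, against 9.84 TPM on average (1.01, SE 0.32, adjusted p = 0.031, limma). At an unadjusted p under 0.05, 2 models were higher and 1 lower (limma). The frogs differed here: relative to the other tissues of the same frog, no model was at least 1 higher on the log2 scale in the Ueno intestine and 11 were in the Taira intestine. gins4.L lost its call after either scaling. No model was called in intestine without the Ueno heart, kidney, liver, lung or stomach or without the Taira brain, intestine, muscle, pancreas or skin, each left out alone, and 2 were without the Taira stomach.

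The same pathway outside the rule was read from a list of 56 tested models for origin licensing and firing, the fork scaffold and checkpoint, priming and lagging strand synthesis, chromatin assembly and nucleotide supply. In ovary 48 were higher and 1 lower than in somatic tissues, with rrm2.2.L (ribonucleotide reductase, 7.09), ccna2.L (cyclin A2, 6.76), donson.L (6.41) and rrm2.2.S (6.37) leading, and dhfr.S, dihydrofolate reductase, lower (-2.06). In testis 35 were higher and 1 lower, led by chaf1b-like.L, named for a chromatin assembly subunit (6.77), cdk2.S, a cyclin-dependent kinase (4.24), dscc1.L (4.21) and fen1.L, the flap nuclease (3.76). Against ovary, testis had none higher and 20 lower, led by top1.2.S, named for topoisomerase I (-5.30), cdt1.1, named for the licensing factor CDT1 (-5.16), rrm2.2.L (-5.03) and donson.L (-4.42). In spleen 12 were higher and 1 lower, in kidney 22 higher and none lower, in muscle none higher and 17 lower, and in intestine none in either direction. Of all models, 24.3% were higher and 19.8% lower in ovary, 20% and 8.67% in testis, and 14.7% and 12.1% in testis against ovary. The shares were 16.4% and 7.41% in spleen, 16% and 1.64% in kidney, 5.64% and 23.1% in muscle, and 10.6% and 4.66% in intestine. The pathway counts in spleen and muscle were not far from these shares.

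Cell division markers moved with the replication genes in ovary, testis, spleen and kidney, while in muscle the replication genes were near the background. Of all models, 24.3% were higher in ovary, 20% in testis, 16.4% in spleen, 16% in kidney and 10.6% in intestine. In muscle 23.1% were lower. Of 26 tested mitosis models, 25 were higher in ovary, 23 in testis, 14 in spleen, 23 in kidney and none in intestine, and 12 were lower in muscle. Of 23 regulators of the E2F and DREAM group, 18 were higher and 2 lower in ovary, 14 higher in testis, 8 in spleen and 6 in kidney. Of 13 other DNA polymerases, which act mainly in repair, 6 were higher in ovary and 4 in testis.

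Over the 24 somatic libraries, each replication gene was correlated with the mean of the other members on the log2 scale as a description. Pearson's r ran from 0.41 for pold3.L to 0.96 for orc6.L with a median of 0.86, over libraries that share 2 donors for all tissues. Among named models outside the rule, the ones most like the members' mean were ube2t-like.S (0.96), cse1l.L (0.96), nup133.L (0.96), dnmt1.S (0.95), prim2.S (0.95), ndc1.S (0.95), mad2l1.S (0.95) and znf281.S (0.95). Over all 33317 models tested, members included, the median r was 0.48.

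The Ueno and Taira frogs were compared over the 26 libraries of the 13 female tissues with tissue as a block. The 13 tissues of a dataset came from 1 female. The SE and p-values here therefore measure the spread over tissues and not the spread between frogs. No replication gene was higher in the Ueno frog and 11 were lower, against 0.648% and 9.93% of all models. At an unadjusted p under 0.05, 3 were higher and 33 lower (limma), and the median log2 difference was -0.52, against -0.22 for all models. The lower models included mcm2.L (-1.40, SE 0.25, lower in 12 of 13 tissues), rfc1.L (-1.28, SE 0.29, 12 of 13), mcm4.L (-1.25, SE 0.22, 12 of 13) and orc1.L (-1.16, SE 0.22, 13 of 13), with adjusted p of 0.00072, 0.0034, 0.00068 and 0.0011 (limma). pole3.L (0.65), pold2.L (0.53) and pold3.L (0.40) had an adjusted p under 0.05 in the other direction, below the size required.

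The gap was widest in ovary, where the members' median was -1.55 and 40 of 49 were lower in the Ueno frog. mcm6.L (-5.39), pole-like.L (-4.73), rfc1.L (-4.63) and pola1-like.S (-4.52) had the lowest values there, while pole3.L (1.81), pold2.L (1.57), mcm7.L (1.38) and mcm7.1 (0.51) were higher in the Ueno ovary. In muscle and pancreas the medians were 0.04 and 0.02. Without the Ueno ovary 6 models were called lower, and without the Taira ovary also 6. After median-of-ratios scaling 2 models were higher and 1 lower in the Ueno frog, after quantile normalization 1 was higher and 1 lower, and with a pseudocount of 5 TPM none was called. The one-sided direction of the members' calls was therefore not seen after either scaling, and the calls over all models were not counted at these settings. Donor and dataset cannot be told apart.

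**Figure D5:**
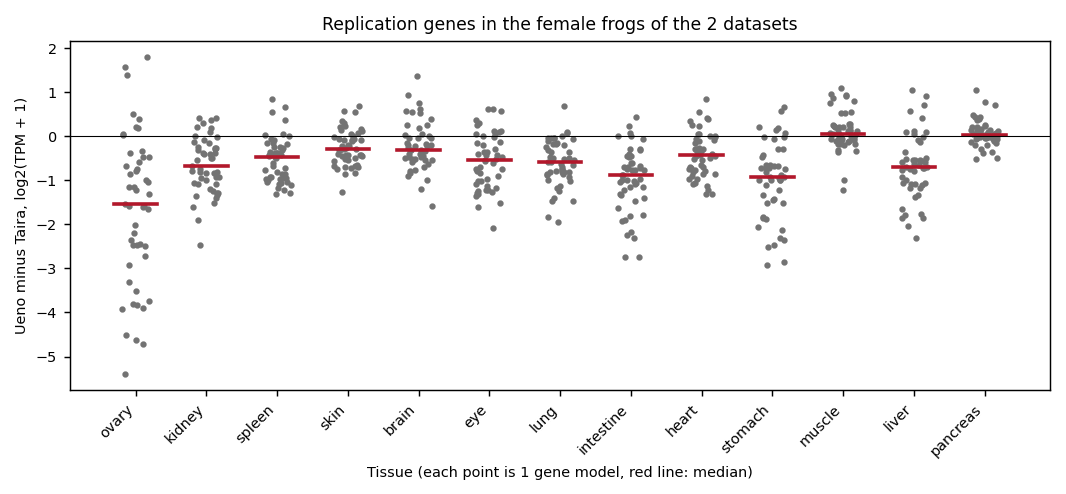
Ueno minus Taira difference in log2(TPM + 1) for 49 replication gene models (points) in each of the 13 female tissues, with the median as a red line. The median is -1.55 in ovary, where values run furthest apart, and near 0 in muscle and pancreas.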

How the data were processed

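Per the labels' protocols, polyadenylated RNA of minced whole tissue was made into unstranded libraries, so reads of antisense partners cannot be told apart. The authors deposited TPM values per cDNA model, made with BWA 0.7.10 and RSEM 1.2.19 as tools listed in the submitters' processing notes. RSEM estimates divide reads between similar copies. All columns were matched to a sample by name. Values on the log2(TPM + 1) scale were fitted in R 4.3.3 with limma 3.58.1, giving each tissue a mean over 28 libraries, with variances moderated along a mean trend. Adjustment ran over the 33317 models that reached 1 TPM in at least 2 libraries, or over 7749 L and S pairs. No count model was used, since TPM keeps no depth. Tables were read with Python 3.11.15, numpy 2.4.6 and pandas 2.3.3, and plots were drawn with matplotlib 3.10.9. The fits were tested on simulated data.

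Each tissue was sampled from 2 animals, 1 per dataset. In the tests of tissues and of L to S ratios, p-values measure the spread between the 2 libraries of a tissue, pooled over tissues. Libraries were treated as independent there, except with the dataset as a block, although 13 tissues shared the same 2 females. A shift shared by the tissues of 1 dataset thus entered this spread. In the comparison of the frogs, p-values measure the spread over tissues. Equal replicate numbers mark the same female in 13 tissues, per the series design. As a description, the difference between Ueno and Taira in 1 female tissue was correlated with that in another over all models tested. Pearson's r had a median of 0.43 over 78 pairs of tissues (lowest -0.01, highest 0.72). Donor and dataset cannot be told apart, so these values cannot check whether 1 female gave the 13 tissues. The members, lists and rules were chosen with earlier results of these data known. Named were the member of highest mean in each role, the called members with the largest differences (those without overlap first), the leading call of each role, up to 4 models not called, and the 4 largest of the other pathway genes per direction. Of the 53 models 41 matched a RefSeq symbol, and 47 did without the ending -like. The reference build differs from that of the files, so no coordinates are given.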

Additional observations from a re-analysis of the deposited data

Results flagged for a closer look

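The ratio of L to S copies differed between tissues in all 10 replication gene pairs, by limma's F test over tissues with adjustment over 7749 pairs, of which 80.5% passed. The adjusted p was 1.3e-09 for cdc45-like, 4.6e-09 for mcm5, 7.5e-08 for mcm6.2, 1.2e-05 for mcm2, 2.9e-05 for rpa1, 4.2e-05 for rfc5, 9.7e-05 for pole3, 0.00028 for mcm4, 0.0020 for rpa2 and 0.039 for rpa3. With 1 TPM added to each copy, the ovary held the highest ratio for cdc45-like, mcm5, pole3, mcm2, mcm4 and rpa1. It held the lowest for rfc5 and mcm6.2. For cdc45-like and pole3, whose S copies were near 0 in most libraries, the ratio follows the level of the L copy. The L share of cdc45-like was 99.3% and 98.7% in the Ueno and Taira ovaries. It was 100% in both libraries of eye, heart, intestine, muscle and pancreas, where cdc45-like.S was listed at 0. In heart, muscle and pancreas cdc45-like.L itself was at most 0.15 TPM, so the shares there say little about the copies. For rpa2 the highest ratio was in brain and the lowest in testis, and for rpa3 the highest was in muscle and the lowest in spleen.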

How the results depend on the processing

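Counts of called members moved by over 1.5 times in these cases, and the cause was not tested. The counts are of members only, without the shares of all models called at the same setting. A move therefore cannot be read as particular to the replication genes. With a pseudocount of 0.1, 16 were lower in muscle and 19 in the Ueno frog. With a pseudocount of 5, higher counts were 4 in spleen, 0 in intestine and 4 in kidney, and lower counts 1 in muscle and 0 in the Ueno frog. After median-of-ratios scaling, 16 differed between somatic tissues, 1 was lower in ovary, 2 higher in spleen, 0 in intestine and 4 in kidney, 1 higher and 4 lower in muscle, and 2 higher and 1 lower in the Ueno frog. After quantile normalization these were 19 between somatic tissues, 4 in spleen, 0 in intestine, 4 in kidney, 2 lower in muscle, and 1 higher and 1 lower in the Ueno frog. With the replicate block, 1 was lower in ovary, 23 higher in spleen and 18 lower in muscle, and no other count moved that far. Without both pancreas libraries, chosen after seeing the data, 8 were higher in spleen, 0 in intestine and 8 in kidney, and 16 lower in muscle. Without both kidney libraries, likewise chosen, no count moved that far, nor with other minimums, without the variance trend, or with testis added to the frogs.

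Leaving out 1 library at a time, the counts ranged from 29 to 45 higher in ovary, 24 to 39 in testis, 2 to 7 in testis against ovary, 0 to 17 in spleen, 0 to 2 in intestine and 5 to 18 in kidney, and from 16 to 28 lower in testis against ovary, 3 to 14 in muscle and 6 to 14 in the Ueno frog. The library that remained was assumed to vary like the other tissues. In ovary mcm3ap-like.L, the model caught by its prefix, ranged from -0.12 without the Taira ovary to 3.82 without the Ueno ovary. After the scalings the median of all models in spleen was -0.14 and -0.09 in place of 0.27, and in kidney -0.13 and -0.16 in place of 0.48. In ovary it was -0.33 and -0.18 in place of -0.21, and in testis -0.20 in both in place of 0.02. The members' median lay above it by 3.77, 3.42 and 2.66 in ovary, by 2.12, 1.86 and 1.58 in testis, by 0.75, 0.58 and 0.57 in spleen and by 0.47, 0.33 and 0.31 in kidney (these values, median-of-ratios, quantile). Depth is unknown, so low TPM values carry an error that could not be given.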

Other observations

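The S copy of orc4 (orc4.Sp) and the S copy of cdc45-like were the members that passed the minimum at the lowest levels. orc4.Sp was highest in the Ueno and Taira brains at 1.83 and 1.16 TPM, and in the testes at 1.28 and 1.43 TPM. In the ovaries, where most members peaked, it had 0 and 0.26 TPM. mcm9-like.L, named for the partner of MCM8, differed between the frogs in both gonads, with 1.17 and 31.4 TPM in the Ueno and Taira ovaries and 1.54 and 30.0 TPM in the testes.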
